A study of Mus musculus with 8 samples.

Results

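A set of 9 genes linked to striated muscle and cell-contact scaffolds were followed in C3H10T1/2 cells, a mouse embryo mesenchymal line that can take on several connective-tissue fates, carrying histone H3 transgenes substituted at lysine 36. The genes were chosen by symbol and make up 9 of the 31276 genes listed: the scaffold and cytoskeletal genes Sorbs2, Nebl, Pgm5, Gas7 and Pdlim3, the troponin gene Tnni1, and the transcription factor genes Mef2a, Mef2c and Mef2d. All lines stably express an H3 transgene with FLAG and HA tags, were between passages 10 and 15 and were grown in serum-containing medium. TruSeq RNA-seq libraries were made from Trizol RNA. The mutants that formed the first class were K36M in H3.1 and both K36M and K36I in H3.3, in which methionine or isoleucine replaces the lysine. The other 5 libraries were H3.3 K36A (alanine), H3.3 K36L (leucine), H3.3 K36R (arginine), H3.1 K36R and H3.3 WT, the last being the tagged H3.3 with its lysine intact. Each line is represented by 1 library, so n counts lines, and p-values measure the spread between lines, which may be technical. The labels do not say how many clones a line holds, and the cells keep their own H3 genes.

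The choice of genes drew on earlier results of these same libraries, in which the contrast between the K36M or K36I libraries and the other 5 was known. Values along that contrast are therefore given for the 9 genes as a description, without a test. The comparisons between H3.1 and H3.3 and between K36A or K36L and WT or K36R were tested, and so was the class-by-histone interaction. They are not the contrast described above, but earlier results of these libraries were known, so their independence from the choice is not established.

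Lysine 36 of H3 lies on the part of the tail that protrudes from the nucleosome and is methylated by SETD2 and the NSD family of enzymes. H3 with methionine or isoleucine at this position is known to inhibit these enzymes, and K36M recurs in chondroblastoma. In striated muscle, thin filaments are anchored at Z-discs and the Z-discs are tied to the membrane by costameres and, in the heart, by intercalated discs. Non-muscle cells use related scaffolds at stress fibres and adhesion sites. MEF2 proteins are MADS-box transcription factors that bind an A/T-rich consensus and act in muscle, bone, neurons and other tissues.

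Depth ran from 45448249 reads in H3.1 K36M to 68020958 in H3.3 K36I. The deposited values were variance-stabilised log2 values, and normalised reads below were recovered from them by inverting the transformation. A gene was tested when its mean log2 value was at least 1 above the lowest value, equal to about 31 normalised reads; 14215 genes passed, with 8 of the 9 genes among them, and Pdlim3 did not pass. The deposited log2 scale compresses differences near 0 reads, so log2 differences there are smaller than the ratio of reads would give. Markers of the line itself were present in every library, since all 10 mesenchymal markers had reads, with summed levels of 582861 to 812995 normalised reads in the K36M and K36I libraries against 863370 to 1144280 in the other 5. Skeletal muscle markers were mostly low. Of 24, 21 failed the filter; the myogenic factor Myf5 had 0 reads in every library, and so had Myf6, Myh2, Myh4 and Cav3.

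Before the levels, RefSeq start-site windows of 4 of the genes are shown, so that a scaffold gene, a troponin gene and a MEF2 gene that differed between the classes can be set beside a MEF2 gene, Mef2a, that overlapped between them. Each window holds 300 bases of GRCm38.p6, from 250 before to 50 after an annotated start, and is written along the gene's strand. Capitals mark matches to the MEF2 consensus, the CArG box (the site of serum response factor), the MCAT element CATTCC (the site of TEAD factors) and the E-box CANNTG (the site of MyoD-type factors), on either strand. Sorbs2 is shown at chr8:45507538-45507837 on the plus strand, Tnni1 at chr1:135799171-135799470 on the plus strand, Mef2c at chr13:83503784-83504083 on the plus strand and Mef2a at chr7:67372809-67373108 on the minus strand.
Sorbs2: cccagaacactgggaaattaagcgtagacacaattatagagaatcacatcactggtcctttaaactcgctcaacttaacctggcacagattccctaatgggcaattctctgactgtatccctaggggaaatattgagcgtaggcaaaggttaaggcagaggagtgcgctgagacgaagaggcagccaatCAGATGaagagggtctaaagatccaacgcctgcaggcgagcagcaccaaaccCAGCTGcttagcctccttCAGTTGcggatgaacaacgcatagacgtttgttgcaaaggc
Tnni1: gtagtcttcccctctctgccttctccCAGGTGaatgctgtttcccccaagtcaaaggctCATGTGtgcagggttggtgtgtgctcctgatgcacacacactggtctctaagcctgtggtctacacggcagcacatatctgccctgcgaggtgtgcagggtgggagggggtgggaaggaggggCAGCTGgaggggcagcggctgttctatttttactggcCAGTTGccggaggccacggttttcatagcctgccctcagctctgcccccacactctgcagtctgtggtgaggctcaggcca
Mef2c: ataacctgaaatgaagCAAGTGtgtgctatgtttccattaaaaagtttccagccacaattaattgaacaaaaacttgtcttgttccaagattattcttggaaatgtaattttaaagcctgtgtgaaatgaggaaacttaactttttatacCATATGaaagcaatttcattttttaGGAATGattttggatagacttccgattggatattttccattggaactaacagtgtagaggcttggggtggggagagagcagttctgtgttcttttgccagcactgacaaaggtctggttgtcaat
Mef2a: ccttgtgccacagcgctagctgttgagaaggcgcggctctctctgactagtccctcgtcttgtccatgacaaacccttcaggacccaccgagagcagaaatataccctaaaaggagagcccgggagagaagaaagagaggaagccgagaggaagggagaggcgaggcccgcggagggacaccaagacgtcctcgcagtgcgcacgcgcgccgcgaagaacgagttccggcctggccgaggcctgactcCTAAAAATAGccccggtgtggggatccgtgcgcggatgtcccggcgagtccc

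The Sorbs2 window held 3 E-boxes and no other searched element in capitals, the Tnni1 window held 4 E-boxes, and the Mef2c window held 2 E-boxes and 1 MCAT element. The Mef2a window held 1 match to the MEF2 consensus, near its start site. Sorbs2, Tnni1 and Mef2c have further windows, not shown, which held fewer E-boxes. Each further Sorbs2 window held 1 E-box, and that of Tnni1, which overlaps the window shown, held 2. Those of Mef2c held 1 or none, and no MCAT element. Overlapping windows are counted separately. Over all 16 windows of the 8 genes with an entry, 12 held an E-box, 3 an MCAT element, 1 the MEF2 consensus and 1 the CArG box, the last in a window of Nebl. Among all 32851 windows of the same length the shares were 72.3% for the E-box, 14.7% for MCAT, 3.19% for the MEF2 consensus and 1.63% for the CArG box. The sequence TATAAA, not in capitals, was in 2 windows, both of Mef2c, against 13.6% of all windows. A match is a description of letters, and gene-level reads do not show which start site was in use. Gas7 is named only.

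Sorbs2 encodes a SORBS-family adaptor (ArgBP2) that joins actin, vinculin and signalling enzymes at stress fibres, Z-discs and intercalated discs; in GENCODE M21 (GRCm38), whose positions are used for all 9 genes, it lies at chr8:45507788-45827906 on the plus strand. It had 1526 normalised reads in H3.3 K36M, 1815 in H3.3 K36I and 297 in H3.1 K36M, against 34200 in H3.3 WT, 23247 in K36A, 24902 in K36L, 17468 in K36R and 14759 in H3.1 K36R. The groups did not overlap, and the lowest of the other libraries was 8.13-fold above the highest K36M or K36I library. The mean was 1213 ± 806 (SD, n = 3 lines) against 22915 ± 7543 (SD, n = 5 lines), which is 18.9-fold lower. H3.1 K36M was the lowest library by a factor of 5.14 below H3.3 K36M.

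Nebl encodes nebulette, a nebulin-family protein that binds thin filaments near the cardiac Z-disc, with a LIM-domain isoform (LASP2) in non-muscle cells; the gene lies at chr2:17343909-17731464 on the minus strand. It had 9.54 normalised reads in H3.3 K36M, 19.6 in H3.3 K36I and 13.1 in H3.1 K36M, against 1889 in H3.3 WT, 1845 in K36A, 2239 in K36L, 1414 in K36R and 440 in H3.1 K36R. The K36M and K36I libraries were all near the bottom of the range, and H3.1 K36R was the lowest of the other 5. The means were 14.1 ± 5.08 (SD, n = 3) and 1565 ± 694 (SD, n = 5), which is 111-fold lower in the K36M and K36I libraries. The difference was -3.94 on the deposited log2 scale and -6.56 on a scale of log2 normalised reads plus 1.

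Pgm5 encodes aciculin, a phosphoglucomutase relative without known sugar-phosphate activity that sits with dystrophin, utrophin and filamin C at costameres and adherens-type junctions; the gene lies at chr19:24683016-24861855 on the minus strand. It had 19.1 normalised reads in H3.3 K36M, 8.51 in H3.3 K36I and 230 in H3.1 K36M, against 3912 in H3.3 WT, 769 in K36A, 755 in K36L, 3471 in K36R and 6797 in H3.1 K36R. The other 5 libraries spanned 9.0-fold, with K36A and K36L together at the bottom, and H3.1 K36M was the highest of the K36M and K36I libraries. The means were 85.9 ± 125 (SD, n = 3) and 3141 ± 2519 (SD, n = 5), and the lowest other library was 3.28-fold above the highest K36M or K36I library.

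Gas7 encodes a growth-arrest-specific F-BAR protein that binds membranes and actin; the gene lies at chr11:67455437-67688990 on the plus strand. It had 21 normalised reads in H3.3 K36M, 76.6 in H3.3 K36I and 151 in H3.1 K36M, against 5251 in H3.3 WT, 3454 in K36A, 7942 in K36L, 2325 in K36R and 3107 in H3.1 K36R. The means were 82.9 ± 65.3 (SD, n = 3) and 4416 ± 2244 (SD, n = 5), 53.3-fold lower, and the groups did not overlap. The log2 difference of -4.59 was the most negative of the 8 tested genes of the set. K36L was the highest library for Gas7, whereas H3.3 WT was the highest for Sorbs2.

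Tnni1 encodes the slow skeletal isoform of troponin I, the inhibitory subunit of the thin-filament switch; the gene lies at chr1:135779434-135810989 on the plus strand. It had 26.7 normalised reads in H3.3 K36M, 42.5 in H3.3 K36I and 51.3 in H3.1 K36M, against 607 in H3.3 WT, 556 in K36A, 550 in K36L, 986 in K36R and 512 in H3.1 K36R. Of the other 5 libraries, 4 lay close together, and K36R stood above them. The means were 40.2 ± 12.4 (SD, n = 3) and 642 ± 195 (SD, n = 5), which is 16.0-fold lower.

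Mef2c encodes the MEF2 factor best known from heart, skeletal muscle, vessels and growth-plate cartilage; the gene lies at chr13:83504034-83667080 on the plus strand. It had 139 normalised reads in H3.3 K36M, 87.6 in H3.3 K36I and 97.3 in H3.1 K36M, against 1143 in H3.3 WT, 314 in K36A, 411 in K36L, 1832 in K36R and 1602 in H3.1 K36R. The groups did not overlap, with K36A and K36L lying between the K36M and K36I libraries and the remaining 3. The means were 108 ± 27.5 (SD, n = 3) and 1060 ± 684 (SD, n = 5), 9.81-fold lower.

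Mef2a and Mef2d encode the more broadly expressed MEF2 factors, and neither separated the classes. Mef2a lies at chr7:67231163-67372858 on the minus strand and Mef2d at chr3:88142372-88172086 on the plus strand. Mef2a had 2224 normalised reads in H3.3 K36M, 2994 in H3.3 K36I and 3082 in H3.1 K36M, against 2665 in H3.3 WT, 2517 in K36A, 3069 in K36L, 2624 in K36R and 2762 in H3.1 K36R. Mef2d had 625, 719 and 898 in the same first 3 libraries, against 657, 738, 816, 797 and 712 in the other 5 in the same order. Both classes overlapped for both genes, and the largest ratio between any pair of libraries was 1.39 for Mef2a and 1.44 for Mef2d. The class differences were 0.01 and -0.0035 on the log2 scale.

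Pdlim3 encodes ALP, a PDZ and LIM protein that binds alpha-actinin at the Z-disc; it lies at chr8:45885461-45919548, on the same chromosome and strand as Sorbs2. It had 5.73 normalised reads in H3.3 K36M, 5.10 in H3.3 K36I and 5.26 in H3.1 K36M, against 3.72 in H3.3 WT, 13.4 in K36A, 81.8 in K36L, 15.2 in K36R and 8.75 in H3.1 K36R. The gene was low in every library but K36L, and H3.3 WT was lower than all 3 K36M and K36I libraries.

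**Figure D1:**
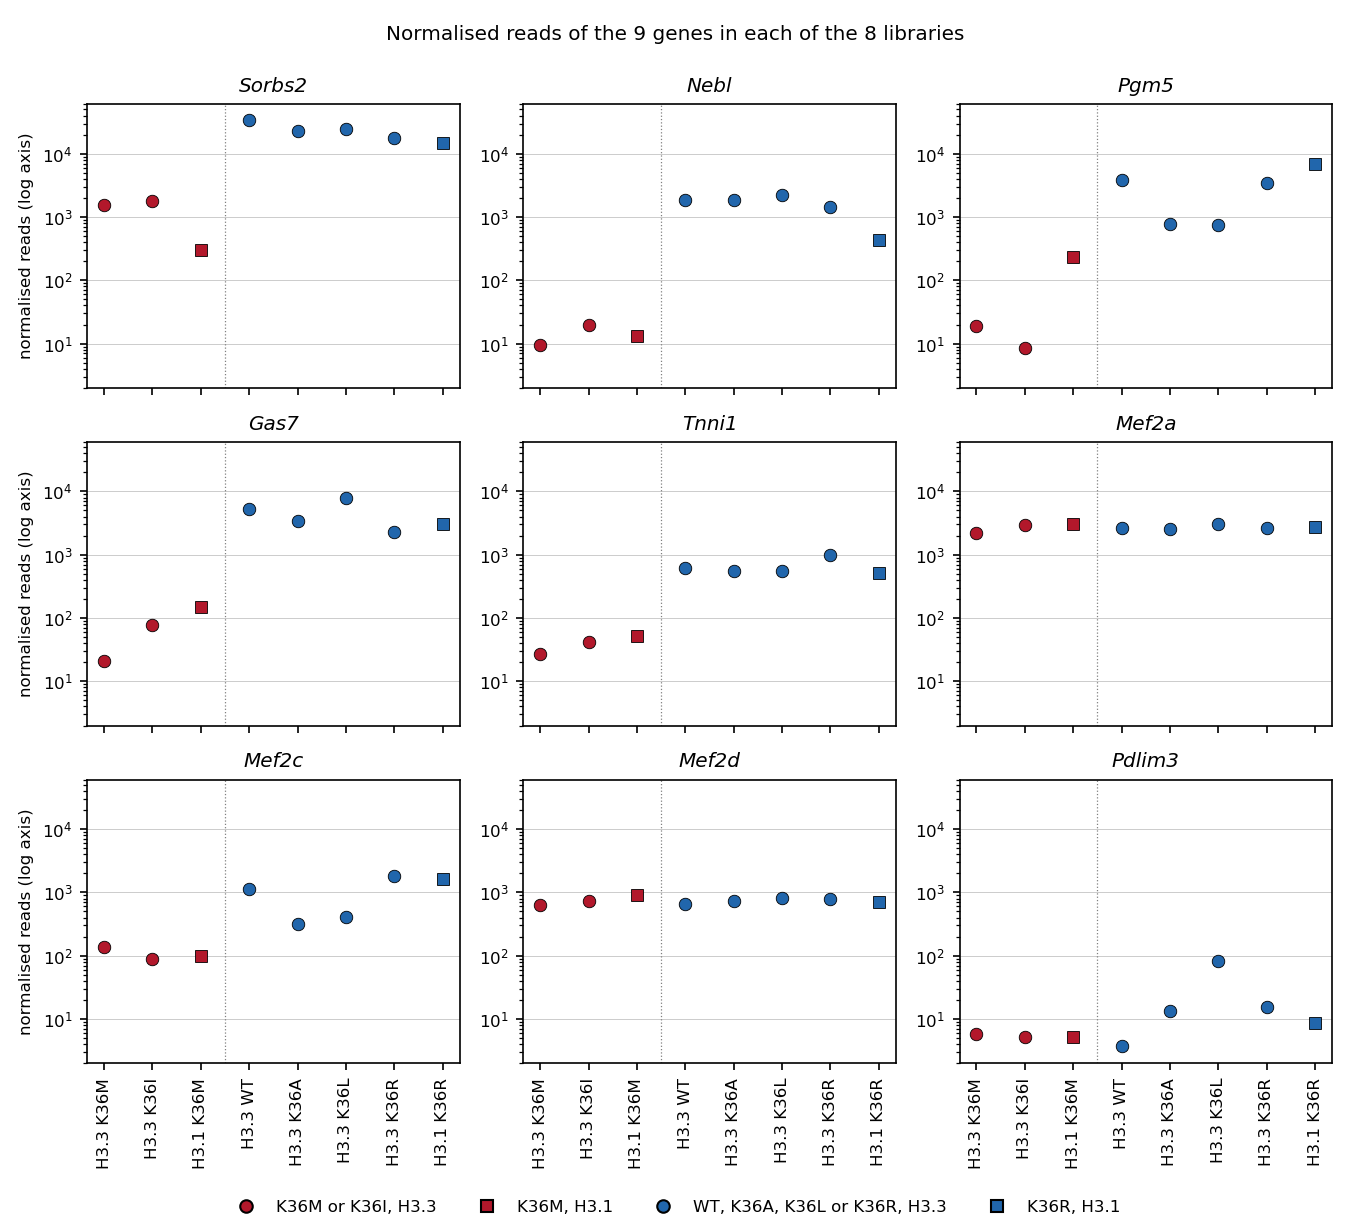
Normalised reads of each of the 9 genes on a log axis, 1 point per library, with the 3 K36M and K36I libraries left of the dotted line and the other 5 right of it. Sorbs2, Nebl, Pgm5, Gas7, Tnni1 and Mef2c lie lower on the left with no overlap, Mef2a and Mef2d are level across libraries, and Pdlim3 stands out in K36L.

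In all, 6 of the 8 tested genes of the set were lower in all 3 K36M and K36I libraries than in any other, and 2 of 8 overlapped. Of all 14215 genes tested, 11.5% were lower with no overlap, and with limma's moderated test with Benjamini-Hochberg adjustment 6.82% were called lower and 6.45% higher; since the genes were selected on this contrast, the count is not read against these shares. Per kilobase of exon in H3.3 WT, Sorbs2 led with 1228 normalised reads, followed by Pgm5 with 1083, Gas7 with 463, Mef2a with 181, Tnni1 with 169, Nebl with 124, Mef2d with 110, Mef2c with 72.7 and Pdlim3 with 0.722. In H3.3 K36M the order was led by Mef2a with 151 and Mef2d with 104, ahead of Sorbs2 with 54.8. These per-length levels have 1 library each and no error, so the order of close neighbours, such as Mef2a and Tnni1 in H3.3 WT, was not tested.

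The class difference can be split by histone. Among H3.3 libraries alone it was -3.77 for Sorbs2, -4.29 for Nebl, -4.23 for Pgm5, -4.98 for Gas7, -2.60 for Tnni1 and -1.99 for Mef2c on the log2 scale. Between the H3.1 libraries, K36M minus K36R, it was -5.18 for Sorbs2, -2.51 for Nebl, -4.34 for Pgm5, -3.63 for Gas7, -2.07 for Tnni1 and -3.09 for Mef2c. The choice of genes drew on this contrast. For these 6 genes the classes do not overlap, so the negative sign in both settings follows, and only the sizes are described. Mef2a gave -0.07 among H3.3 libraries and 0.15 between the H3.1 libraries, and Mef2d gave -0.14 and 0.29.

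Some reads could belong to neighbours, since 4 of the 9 genes share exon bases with another gene in GENCODE M21 and whether counting used strand is not given in the sources used here. Sorbs2os, on the opposite strand, shares 1051 bases with Sorbs2 exons and had 104 normalised reads in H3.3 K36M, 168 in H3.3 K36I and 25.0 in H3.1 K36M, against 1052 to 2703 in the other 5. Glp2r shares 66 bases with Gas7 and had 0 to 6.57 normalised reads in the K36M and K36I libraries, against 73.3 to 233 in the other 5. These partners were far below Sorbs2 and Gas7 in each of the other 5 libraries, but reads of the shared bases cannot be told apart. Lysmd4 (302 bases shared with Mef2a) and 1700113A16Rik (531 bases shared with Mef2d) overlapped between the classes.

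Set against H3.3 WT one library at a time, the 6 genes were lower by at least 1 on the log2 scale in each K36M and K36I library, which is 6 of 8 tested in each. Over all tested genes the shares lower by this much were 4.41% in H3.3 K36M, 4.17% in H3.3 K36I and 4.23% in H3.1 K36M. Since the genes were selected on this contrast, their counts in these 3 libraries are not read against these shares. With 1 library a side there is no test. In K36A, Pgm5 differed from WT by -2.18 and Mef2c by -1.56 (2 of 8, against 1.32% of all genes), and in K36L the differences were -2.21 and -1.26 for the same genes (2 of 8, against 0.507%). In K36R only Gas7 was lower by this much, with a difference of -1.14 (1 of 8, against 0.696%). In H3.1 K36R, Nebl had a difference of -1.85 and Sorbs2 of -1.21 (2 of 8, against 1.25%). All of these differences share the single H3.3 WT library. That library is in the class in which the 6 genes were higher, so these counts are not read against their shares either.

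**Figure D2:**
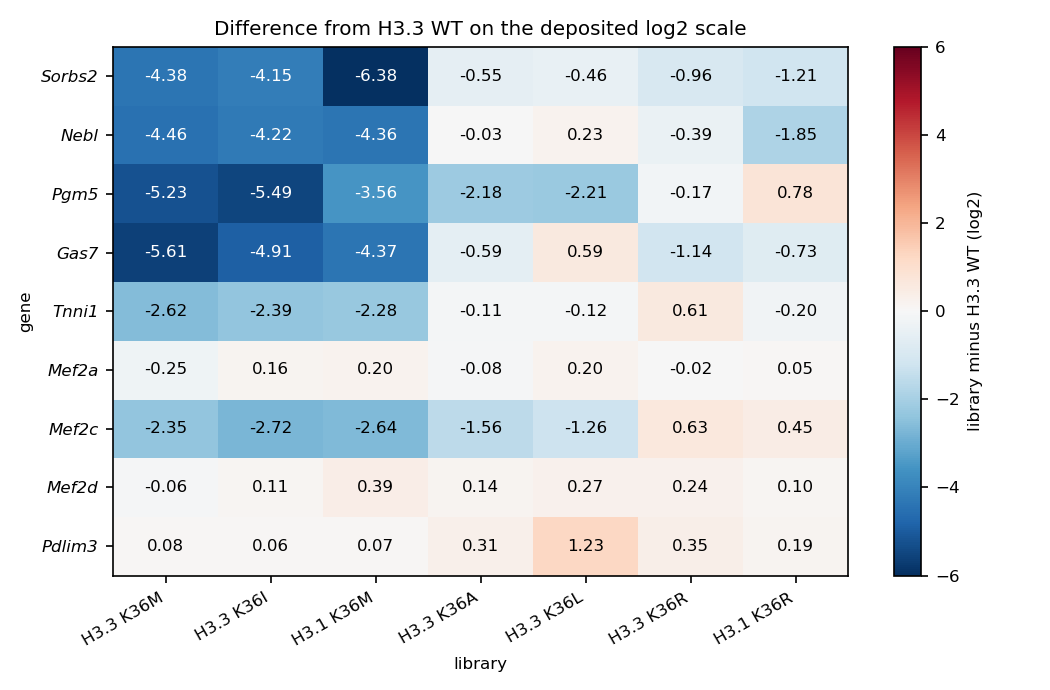
Difference of each library from H3.3 WT on the deposited log2 scale for the 9 genes (rows), with the value printed in each cell and blue for lower. The columns of the 3 K36M and K36I libraries are low for 6 genes, and K36A and K36L are low for Pgm5 and Mef2c.

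The first tested comparison set the 2 H3.1 libraries against the 6 H3.3 libraries, with class as a covariate. Sorbs2 was lower with H3.1: H3.1 K36M had 297 normalised reads against 1526 in H3.3 K36M, and H3.1 K36R had 14759 against 17468 in H3.3 K36R. The fitted difference was -1.35 on the log2 scale (SE 0.33, limma adjusted p = 0.0398), and both substitutions showed its direction, with steps of -2.0 for K36M and -0.24 for K36R. It was the 1 of 8 tested genes called, against 11.0% of all genes, so the share of the set is near the background. The call was lost in 8 of 14 alternatives (adjusted p from 0.0192 to 0.409 over all of them). Leaving out H3.3 K36M, H3.3 K36I, H3.1 K36M, H3.3 WT, K36A or K36L in turn ended it, and without H3.1 K36M the difference was -0.71 (adjusted p = 0.257). Without H3.1 K36R it was -2.12 (adjusted p = 0.0192). With only the K36M and K36R pairs and substitution as the block, it was -1.12 (adjusted p = 0.409).

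For the other tested genes the histone comparison did not pass after adjustment. Pgm5 and Nebl had an unadjusted limma p under 0.05, but so did 4326 of all 14215 genes tested. Pgm5 had 230 normalised reads in H3.1 K36M against 19.1 in H3.3 K36M, a 12.1-fold ratio, and 6797 in H3.1 K36R against 3471 in H3.3 K36R, a 1.96-fold ratio. Its fitted difference was 1.87 (SE 0.62, 95% interval from 0.43 to 3.31, unadjusted p = 0.0174, limma adjusted p = 0.0906), higher with H3.1 for both substitutions. Summed smooth muscle markers were 136994 and 77653 normalised reads in H3.1 K36M and H3.1 K36R, against 16404 to 71370 in the H3.3 libraries. Acta2, smooth muscle alpha-actin, carried most of this sum, with 129877 and 74638 in the H3.1 libraries. Tagln, the transgelin gene, had 2660 in H3.1 K36M against 655 in H3.3 K36M, but 607 in H3.1 K36R against 1420 in H3.3 K36R. The part of these markers in the Pgm5 values was not tested. Nebl had a fitted difference of -1.0 (SE 0.35, 95% interval from -1.81 to -0.18, unadjusted p = 0.0223, limma adjusted p = 0.104), but its step was 0.10 for K36M and -1.46 for K36R; without H3.1 K36M the difference was -1.81 (adjusted p = 0.0243, with a range of 0.0243 to 0.966 over its alternatives), and without H3.1 K36R it was -0.02. Gas7, Tnni1, Mef2a, Mef2c and Mef2d had fitted differences of 0.16, -0.06, 0.13, 0.49 and 0.13, with 95% intervals from -0.93 to 1.25, from -0.57 to 0.44, from -0.16 to 0.41, from -0.82 to 1.81 and from -0.16 to 0.42.

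The second such comparison asked whether the alanine and leucine substitutions differ from WT and arginine within H3.3. No gene of the set passed after adjustment. Pgm5 had 769 and 755 normalised reads in K36A and K36L, against 3912 and 3471 in WT and K36R, a 4.84-fold lower mean. Mef2c had 314 and 411 in K36A and K36L, against 1143 and 1832 in WT and K36R, a 4.10-fold lower mean. Both K36A and K36L were lower than both WT and K36R for each of these genes. Tnni1 had 556 and 550 in K36A and K36L, against 607 and 986 in WT and K36R (limma adjusted p = 0.986). With 2 libraries a side such a separation is a description only, and its share over all genes was not counted. In the fit with class and histone as covariates, the differences were -1.95 for Pgm5 (SE 0.23, unadjusted p = 5.24e-05, limma adjusted p = 0.101) and -1.76 for Mef2c (SE 0.23, unadjusted p = 9.77e-05, limma adjusted p = 0.118), so neither passed after adjustment. By unadjusted p they ranked 7 and 11 of 14215 genes.

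None of the 8 tested genes was called there, against 0.0211% of all genes (3 genes; 785 had an unadjusted limma p under 0.05, and 2 of the 8, Pgm5 and Mef2c, were among these). The Pgm5 adjusted p ran from 0.0168 to 0.864 over its alternatives: it passed with array weights (0.0168), without H3.1 K36M (0.0376) and without H3.1 K36R (0.0499). The Mef2c adjusted p ran from 0.0628 to 0.692. The other 6 genes had fitted differences of -0.26 for Sorbs2, 0.57 for Nebl, 0.74 for Gas7, -0.30 for Tnni1, 0.10 for Mef2a and 0.15 for Mef2d. Their 95% intervals all held 0 and were widest for Gas7, from -0.45 to 1.93. Summed smooth muscle markers were 34305 and 21812 normalised reads in K36A and K36L, against 37366 and 71370 in WT and K36R. Acta2 again carried most of the sum, with 31352 and 19378 in K36A and K36L against 34856 and 67598 in WT and K36R. Tagln had 471 and 314 in K36A and K36L against 241 and 1420 in WT and K36R, and Smtn had 2331 and 2004 against 2151 and 1953. The part of these markers in the Pgm5 and Mef2c values was not tested.

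The third comparison asked whether the class difference itself depends on the histone. The interaction was called for 0 of 14215 genes (0%; 1582 had an unadjusted limma p under 0.05, and the smallest adjusted p was 0.181), so no gene of the set passed, and 2 of the 8, Nebl and Sorbs2, had an unadjusted p under 0.05. The class difference of Nebl was -2.51 in H3.1 against -4.29 in H3.3, an interaction of 1.78 (SE 0.34, unadjusted p = 0.00121, limma adjusted p = 0.241). Nebl was near the bottom of the range in every K36M and K36I library, at 9.54 to 19.6 normalised reads. Its interaction thus mainly restates the other class, with 440 in H3.1 K36R against 1414 to 2239 in the H3.3 libraries. The class difference of Sorbs2 was -5.18 in H3.1 against -3.77 in H3.3, an interaction of -1.41 (SE 0.46, unadjusted p = 0.0181, limma adjusted p = 0.351). For Pgm5 the interaction was -0.11 with a 95% interval from -3.30 to 3.08, which leaves room for large differences in either direction. With 2 H3.1 libraries the interaction rests on 1 line per cell on that side.

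**Figure D3:**
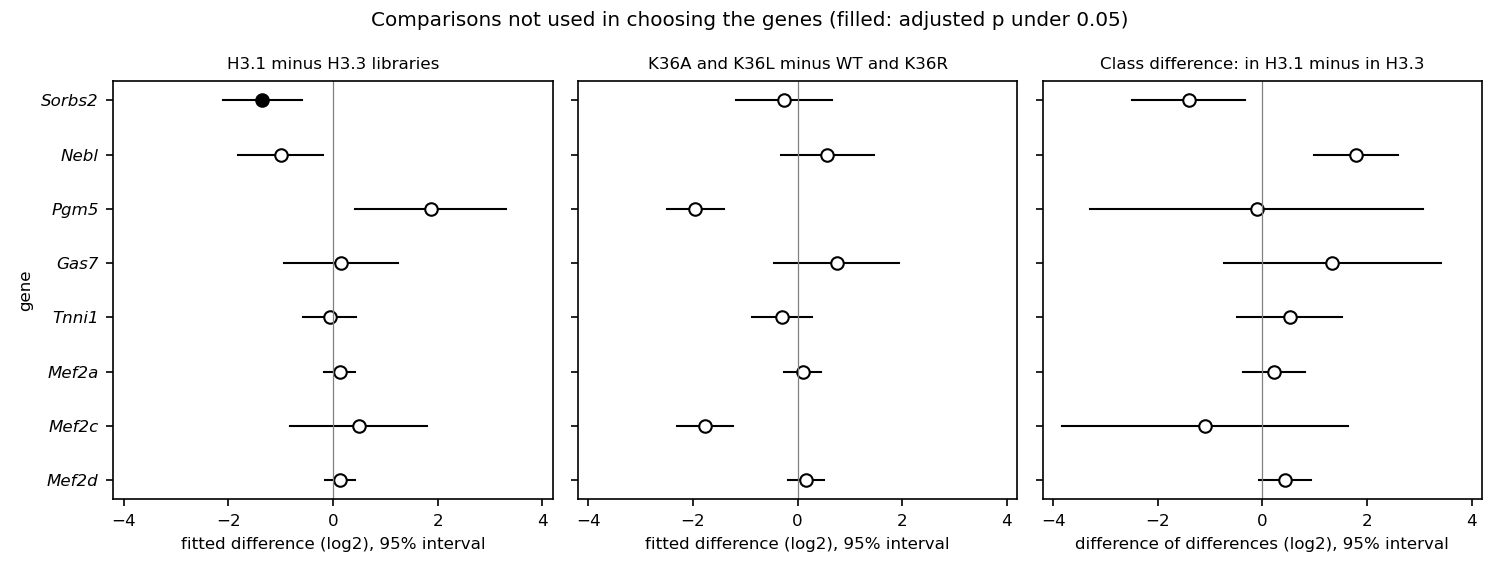
Fitted log2 differences with 95% confidence intervals for the 8 tested genes in the H3.1 minus H3.3, K36A or K36L minus WT or K36R, and class-by-histone comparisons, with filled points for adjusted p under 0.05. Sorbs2 in the histone panel is the 1 filled point, and Pgm5 and Mef2c lie at -1.95 and -1.76 in the alanine and leucine panel.

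Within the set, the Pearson correlation of the log2 values was 0.94 between Pgm5 and Mef2c and 0.96 between Nebl and Gas7, and 0.72 between Mef2a and Mef2d. The libraries fall into 2 classes by the choice of the genes, so these correlations are a description over 8 libraries and carry no p. Most like Sorbs2 by this measure were Sorbs2os (0.99), which shares its exon bases, Tnrc6c and Ttbk2; most like Nebl were Fchsd2, Hipk2 and Sox8. Most like Pgm5 were Adcy1, Ugp2 and Nck2, and most like Gas7 were Cab39l, Fli1 and Megf9. Cyp2j6, Tspyl1 and Hr were most like Tnni1, and AK043267, Smo and Pax8 most like Mef2c. The measure takes no account of size: Tnrc6c differed between the classes by -0.29 on the log2 scale, where Sorbs2 differed by -4.33.

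Relatives of the 9 genes were read in the same comparison. Of 27 paralogues of the 9 genes (such as other SORBS, nebulin, PDLIM and F-BAR family genes), 22 were tested; 2 rose, 0 fell and 20 did not pass by limma's adjusted p in the class comparison (7 higher and 2 lower at an unadjusted p under 0.05), with a median difference of 0.06, beside -0.0087 over all tested genes, of which 6.45% were called higher and 6.82% lower. Some relatives were called lower with array weights (6 rose, 2 fell) and without H3.1 K36R (3 rose, 1 fell). Pstpip2, an F-BAR protein gene, rose to 306 ± 30.7 normalised reads in the K36M and K36I libraries (SD, n = 3), against 76.6 ± 15.0 in the other 5 (SD, n = 5), with a log2 difference of 1.24 (limma adjusted p = 0.000392). Pdlim5, which like Pdlim3 encodes a Z-disc PDZ and LIM protein, rose by 0.47 (adjusted p = 0.0270), and its call was lost without H3.3 K36I, WT, K36A or K36L (adjusted p from 0.0565 to 0.0704). Of 11 troponin and tropomyosin genes 7 were tested, of which 1 rose and 0 fell by limma's adjusted p (3 higher and 1 lower at an unadjusted p under 0.05), with a median of 0.20; Tpm2, beta-tropomyosin, rose to 7272 ± 1307 normalised reads against 3630 ± 518, a log2 difference of 0.98 (adjusted p = 0.00360). Of the relatives and list genes named, Pstpip2, Cryab, Pvrl2, Smtn, Tagln and Fn1 share exon bases with another gene. Their reads may therefore be shared. For Tagln the overlaps, with Pcsk7 and Gm48529 on the opposite strand, cover up to 1349 of its 1988 exon bases. These lists, like the 9 genes, were drawn up with earlier results known, and their counts are descriptions.

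Other Z-disc and thin-filament genes did not share one direction. Of 32 genes 18 were tested, and 5 rose, 2 fell and 11 did not pass, with a median of 0.28. Over all tested genes, 6.45% were called higher and 6.82% lower. Ankrd1, a titin-binding ankyrin-repeat protein gene that also responds to stretch, rose to 3932 ± 506 normalised reads in the K36M and K36I libraries (SD, n = 3), against 327 ± 233 in the other 5 (SD, n = 5). Its log2 difference was 3.39 (SE 0.44, limma adjusted p = 0.00201). Fhl2, a LIM-only cofactor gene, rose by 1.41 (adjusted p = 0.00496), and Synpo2, the gene of the actin-binding myopodin, by 1.32 (adjusted p = 0.00347). Cryab, the small heat-shock protein gene of the Z-disc, fell to 1779 ± 460 normalised reads against 6432 ± 2121, a log2 difference of -1.75 (adjusted p = 0.00496); the gene sharing its exon bases is Hspb2, on the opposite strand.

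Among 28 costamere and dystrophin-complex genes, 25 were tested, of which 2 rose, 4 fell and 19 did not pass, with a median of -0.01. The shares over all tested genes were 6.45% called higher and 6.82% called lower. Sgcd, delta-sarcoglycan of the complex to which Pgm5 is linked, fell to 1256 ± 496 normalised reads in the K36M and K36I libraries (SD, n = 3), against 4063 ± 666 in the other 5 (SD, n = 5), a log2 difference of -1.67 (limma adjusted p = 0.00356). The syntrophin gene Sntb2 had a difference of -0.61 (adjusted p = 0.0120). Its call was lost without H3.3 K36M (0.0519) or H3.3 K36I (0.0503). Vasp, an actin-elongation factor gene, had a difference of 0.39 (adjusted p = 0.0302), and its call was lost without H3.3 K36M, H3.1 K36M, WT, K36L or K36R (adjusted p from 0.0600 to 0.120).

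Of 20 adherens-junction and intercalated-disc genes, 15 were tested. By limma's adjusted p 3 rose and 0 fell (3 higher and 3 lower at an unadjusted p under 0.05), with a median of 0.12. Beside them, 6.45% of all tested genes were called higher and 6.82% lower. Pvrl2, the gene of nectin-2, rose by 1.01 (limma adjusted p = 0.00889), with 1104 ± 122 normalised reads in the K36M and K36I libraries (SD, n = 3) against 500 ± 123 in the other 5 (SD, n = 5). Pkp2, the desmosomal plakophilin-2 gene, had a difference of 1.22 (adjusted p = 0.0410), a call lost without H3.3 K36I, H3.1 K36M, WT, K36A, K36L or K36R (adjusted p from 0.0556 to 0.0911). The value of Pkp2 without H3.1 K36M was 0.78.

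Co-regulators and described targets of the MEF2 factors were read in the same way. Of 21 MEF2 co-regulators and kinases, 18 were tested, of which 0 rose by limma's adjusted p, 3 fell and 15 did not pass (2 higher and 5 lower at an unadjusted p under 0.05), with a median of -0.05, beside 6.45% called higher and 6.82% called lower over all genes. A gene of the list was called higher with array weights (1 rose, 5 fell) and without H3.3 K36M (1 rose, 2 fell). Akap6, the gene of the muscle anchoring protein mAKAP, which gathers calcineurin and MEF2 at the nuclear envelope in cardiac myocytes, fell to 330 ± 189 normalised reads in the K36M and K36I libraries (SD, n = 3), against 1976 ± 257 in the other 5 (SD, n = 5). Its log2 difference was -2.32 (SE 0.25, limma adjusted p = 0.000909). Sik1, a kinase gene whose product phosphorylates class IIa histone deacetylases, the repressors of MEF2, fell by 1.33 (adjusted p = 0.00160). Vgll4, which encodes a TEAD cofactor, had a difference of -0.45 (adjusted p = 0.0326), and its call was lost without H3.3 K36M, H3.3 K36I, WT, K36A or K36L (adjusted p from 0.0554 to 0.126). Of 17 described MEF2 targets, 9 were tested, of which 1 rose, 2 fell and 6 did not pass, with a median of -0.27. Klf4 fell to 5035 ± 319 normalised reads against 10838 ± 1465, a log2 difference of -1.08 (adjusted p = 0.00106), and Klf2 fell by 0.65 (adjusted p = 0.0170); both encode Krüppel-like factors.

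**Figure D4:**
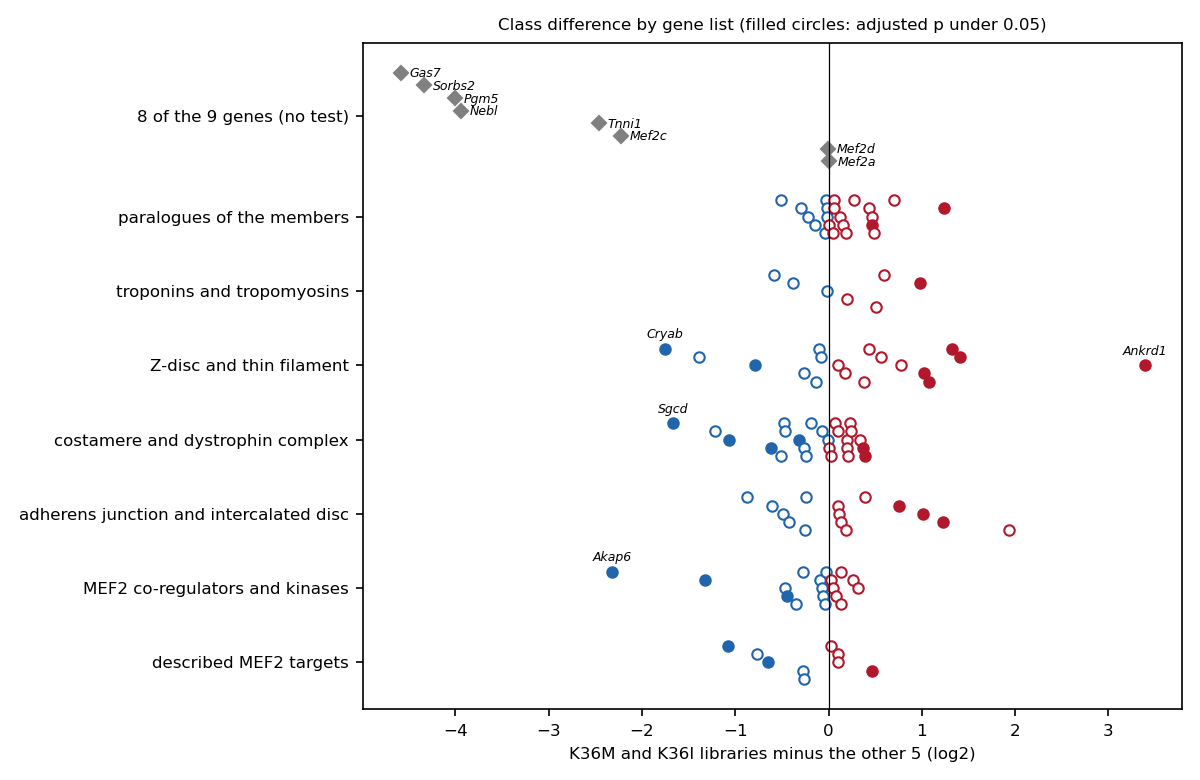
Log2 difference between the K36M and K36I libraries and the other 5 for the tested genes of the set (diamonds, no test) and of 7 related lists (circles, filled where the adjusted p is under 0.05). Sorbs2, Nebl, Pgm5 and Gas7 lie between -3.94 and -4.59, while the filled circles of the lists lie on both sides of 0, with Ankrd1 at 3.39 and Akap6 at -2.32.

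Markers of other cell types were read beside these levels. Beside each marker list stand the shares over all tested genes, 6.45% called higher and 6.82% called lower. Of 24 skeletal muscle markers, the 3 tested gave 0 that rose by limma's adjusted p (0 also at an unadjusted p under 0.05) and 1 that fell; their summed level was 495 to 539 normalised reads in the K36M and K36I libraries against 361 to 599 in the other 5. Pax3, the one that fell, had 43.7 ± 31 normalised reads (SD, n = 3) against 196 ± 85.5 (SD, n = 5), a difference of -1.13 (adjusted p = 0.0268), and its call was lost without H3.3 K36M, H3.1 K36M, WT, K36A or K36L (adjusted p from 0.0538 to 0.0957). Of 14 cardiac markers, 2 were tested and neither passed by limma's adjusted p (1 had an unadjusted p under 0.05), with summed levels of 691 to 943 against 677 to 808. Of 7 smooth muscle markers, 5 were tested: Actg2, the smooth muscle gamma-actin gene, rose by 2.69 (adjusted p = 0.00793) and Smtn, the smoothelin gene, had a difference of -0.42 (adjusted p = 0.0137; 0.0616 without H3.3 K36M). Summed smooth muscle markers, mostly Acta2, were 16404 to 136994 normalised reads in the K36M and K36I libraries, against 21812 to 77653 in the other 5.

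Of the 10 mesenchymal markers, Twist1 rose by 0.47 (limma adjusted p = 0.0189) and Fn1, the fibronectin gene, fell to 77021 ± 23866 normalised reads in the K36M and K36I libraries (SD, n = 3), against 152474 ± 23212 in the other 5 (SD, n = 5; log2 difference -1.01, adjusted p = 0.0167). The Twist1 call was lost without H3.3 K36M (0.0826) or WT (0.0516), and the Fn1 call without H3.3 K36M (0.0654) or H3.3 K36I (0.0549). Leukocyte markers summed to 15.3 to 38.2 normalised reads in the K36M and K36I libraries against 5.47 to 39.0 in the other 5, with none of 6 tested. Epithelial markers summed to 701 to 1149 against 293 to 795, and endothelial markers to 212 to 259 against 115 to 327; of 5 in each list, 1 was tested and it did not pass. The part of these markers in the levels of the 9 genes was not tested. In bulk RNA, fewer expressing cells and less RNA per cell cannot be told apart.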

How the data were processed

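RNA-seq was made from 8 C3H10T1/2 lines, 1 library each. Per the submitters' processing notes, Trimmomatic 0.32, STAR 2.3.0e, featureCounts 1.4.4, DESeq2 and the build mm10 were used; the sources used here do not give their order, settings, annotation or use of strand. The authors deposited log2 values after a variance-stabilising transformation of reads divided by a size factor per library, without correction for gene length. Inverting its parametric form gave whole reads for 100% of values (within 0.001 reads), and from them depths and normalised reads. Genes with 0 reads in every library (8275) and others below the filter left 17061 of 31276 genes untested. A count of 0 allows up to 3 reads, counting error only.

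Groups came from the labels. limma 3.58.1 (R 4.3.3; empirical Bayes with trend, Benjamini-Hochberg over all 14215 tested genes, threshold 0.05) was fitted on the deposited scale: class alone; histone with class; alanine or leucine with class and histone; and class by histone. It was tested on simulated data. The 9 genes and the 14 other lists were chosen with earlier results of these data known. All 9 genes are named; from each list up to 4 called genes with the largest difference, or the largest 2 where none passed; and the 3 genes most correlated with each member. Some genes that met this rule are not reported here. The closing section gives the remaining named genes and the effect of the alternatives: other filters, equal library medians, another log scale, array weights, other covariates, a replicate block and leaving out each library. Promoter windows are RefSeq's; positions of genes and exon overlaps are GENCODE M21 on GRCm38.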

Additional observations from a re-analysis of the deposited data

Results flagged for a closer look

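Among the 5 libraries outside the K36M and K36I class, 2 of the 9 genes had 1 library far from the rest, by the gap to its nearest neighbour relative to the whole range. Tnni1 was high in H3.3 K36R, at 10.11 on the deposited log2 scale. Pdlim3 was high in H3.3 K36L, at 7.53, and this gene was too low in the other libraries to be tested. The Pdlim3 flag is borderline, with a gap of 0.7105 of the range against a cutoff of 0.71. For Tnni1 the gap was 0.748. Nebl, low in H3.1 K36R, stayed just below the cutoff at 0.702. Chance alone would pick out about 1 in 20 such groups.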

How the results depend on the processing

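The class comparison called 1887 genes (917 higher and 970 lower, 48.6% higher); setting library medians equal gave 1156 higher and 805 lower, 58.9% higher. Array weights gave 4074 and histone as a covariate 2959, and leaving out 1 library gave 1021 to 2084, with 1021 without H3.3 K36M, 1245 without H3.3 K36I and 1211 without H3.3 WT. The histone comparison called 1567 genes; array weights gave 414 and leaving out 1 library 183 to 1934, with 183 without H3.1 K36M, 574 without H3.3 K36I, 769 without H3.3 K36M, 791 without WT and 836 without K36L. The K36M and K36R pairs with substitution as a replicate block gave 12; the pairing is by substitution only, since each line has 1 library. The alanine and leucine comparison called 3 genes; no filter, a stricter filter and the 4 libraries alone each gave 0, log2 of normalised reads plus 1 gave 6, array weights 9, and leaving out 1 library 0 to 4. The interaction called 0, but 798 with no filter; leaving out 1 library gave 0 to 0 where it could be fitted, which was not so without either H3.1 library.

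Directions of the 6 lower genes of the set held in all alternatives of the class comparison. The choice of genes drew on this contrast, and these genes do not overlap between the classes. The kept directions are therefore not read as support. On log2 of normalised reads plus 1 the class differences were -5.98 for Gas7, -6.56 for Nebl, -5.97 for Pgm5 and -3.97 for Tnni1. Signs turned where values lay near 0. For the histone comparison, leaving out 1 library gave -0.45 to 0.89 for Gas7 (-0.45 without H3.1 K36M, -0.069 without H3.3 K36M), -0.11 to 0.99 for Mef2c (-0.11 without H3.1 K36R; -0.24 with the replicate block), -0.065 to 0.37 for Mef2d (lowest without H3.1 K36M) and -0.30 to 0.22 for Tnni1 (0.22 without H3.1 K36R, 0.037 without K36R; 0.075 on log2 of normalised reads plus 1). For alanine and leucine it gave -0.43 to 0.0090 for Tnni1 (highest without K36R), and -0.037 for Mef2a without K36L. The Pgm5 interaction ran from -0.49 to 0.25 (0.25 without K36L, 0.24 without K36A, 0.019 without H3.3 K36M) and was 2.04 on log2 of normalised reads plus 1. The class difference of Gata4, a cardiac marker that did not pass, ran from -0.091 to 0.14 (-0.091 without H3.3 K36M, -0.0030 without K36R). Among the lists, the costamere genes moved most across these alternatives, with 0 to 3 that rose and 1 to 9 that fell. Of the named list genes' values, 348 kept their side of the threshold, 48 lost it, 3 gained it and 2 turned; the cause was not tested.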

Other observations

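Several list genes outside the main account met the naming rule or stood near it. Myom1, the gene of the M-band protein myomesin, had 138 ± 20.8 normalised reads in the K36M and K36I libraries (SD, n = 3), against 76.3 ± 19.3 in the other 5 (SD, n = 5), a log2 difference of 0.47 (limma adjusted p = 0.0433). Its call was kept in 4 of 13 alternatives (adjusted p from 0.00845 to 0.125). It was lost with no filter (0.0570), on log2 of normalised reads plus 1 (0.0533) and without any of the H3.3 libraries or H3.1 K36M (0.0539 to 0.125), and it shares exon bases with Myl12a. Pln, the gene of phospholamban, had a difference of -0.36 (adjusted p = 0.0584) and passed only with array weights (0.0157) and on log2 of normalised reads plus 1 (0.0478) of the alternatives run (adjusted p from 0.0157). Cdh1, E-cadherin, had 818 ± 214 normalised reads against 477 ± 195, a difference of 0.69 (adjusted p = 0.120; 0.0354 without H3.3 K36A). Vwf, the von Willebrand factor gene, had a difference of 0.26 (adjusted p = 0.523). Among the named list genes, Pstpip2, Cryab, Pvrl2, Myom1, Pln, Smtn, Tagln and Fn1 share exon bases with another gene on the opposite strand.

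Most like Mef2a over the 8 libraries were Sin3a, Tspan9 and Slc37a2, with correlations from 0.89 to 0.93, and most like Mef2d were Pcmt1, AK171960 and Ak1, from 0.93 to 0.96.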
